A study of Mus musculus with 4 samples.

Results

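Chondrocytes of the limb were compared with chondrocytes of the trunk by their lists of peaks of H3K27 acetylation (H3K27ac), the histone mark of active enhancers and promoters. The members were the peak intervals listed for EGFP+ cells of limb (40899) and of trunk (36231), 77130 of the 142206 intervals of the 4 libraries of the series. All lists came from mouse fetuses of stage E14.5 that were made by tetraploid aggregation from 1 embryonic stem cell line, G4, carrying the Col2a1-EGFP genotype. In that line an EGFP cassette with a minimal β-globin promoter sits upstream of Col2a1, so that EGFP follows the enhancers of this cartilage collagen gene, and EGFP+ cells were sorted from EGFP- cells. Limb tissue held the stylopods, zeugopods and autopods of fore- and hindlimbs, and trunk tissue ran from neck to tail without internal organs. Each population gave 1 H3K27ac library, so that limb and trunk differ also in library and sequencing lane, which cannot be told apart from tissue. No p-value is given for that reason, and all intervals cover counting error only, with sequenced reads that carried no molecular identifiers.

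Cartilage of the limb arises from lateral plate mesoderm, and cartilage of the vertebrae and ribs from the sclerotome of the somites. Both lineages pass through the same programme, in which Sox9, Sox5 and Sox6 switch on collagens and proteoglycans, but they reach it from different positional codes. Limb mesenchyme uses T-box factors, Pitx1, Hand2, Lmx1b and the posterior HoxA and HoxD genes, whereas the sclerotome uses Pax1, Pax9, Nkx3-2, Uncx and the Hox code of the body axis.

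To show what tissue-alone regions near factors of these codes look like, the summits with the highest −log10 p near such genes are given here with 100 bases on each side. Each is named for a listed factor within 100 kb, which need not be the nearest gene. A region was called limb-alone or trunk-alone when no interval of the other EGFP+ list overlapped it by 1 bp, and distal when it lay outside 2 kb upstream to 500 bp downstream of every protein-coding start site. The windows were read from the plus strand of GRCm39, the build of the peak lists, and the capital marks the summit base. For limb patterning factors the limb-alone summits were Tbx15 at chr3:99161246-99161446, in an exon of Tbx15 0.649 kb downstream of its start site, Tbx2 at chr11:85742992-85743192, 19.7 kb downstream between genes, and Msx1 at chr5:37909415-37909615, 72.4 kb downstream between genes and nearest to Cytl1. For sclerotome and axial factors the trunk-alone summits were Hoxb5 at chr11:96185700-96185900, in an annotated intron at −8.54 kb from its start site and nearest to Hoxb6, Foxc1 at chr13:31963954-31964154, at −26.6 kb between genes, and Hoxc5 at chr15:102909160-102909360, in an annotated exon at −13 kb and nearest to Hoxc6. The Foxc1 region is trunk-alone in a locus with 7 limb-alone and 3 trunk-alone regions. Beside them stands the promoter summit of Hoxd13 (chr2:74497822-74498022, limb alone).
Tbx15 limb-alone: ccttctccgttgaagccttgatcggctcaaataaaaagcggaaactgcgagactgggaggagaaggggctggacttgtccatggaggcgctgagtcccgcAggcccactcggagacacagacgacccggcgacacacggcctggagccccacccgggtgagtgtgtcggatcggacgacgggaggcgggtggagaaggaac
Tbx2 limb-alone: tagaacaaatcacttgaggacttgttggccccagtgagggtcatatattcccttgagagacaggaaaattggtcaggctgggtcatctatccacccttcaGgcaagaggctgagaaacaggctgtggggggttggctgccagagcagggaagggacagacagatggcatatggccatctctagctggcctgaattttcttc
Msx1 limb-alone: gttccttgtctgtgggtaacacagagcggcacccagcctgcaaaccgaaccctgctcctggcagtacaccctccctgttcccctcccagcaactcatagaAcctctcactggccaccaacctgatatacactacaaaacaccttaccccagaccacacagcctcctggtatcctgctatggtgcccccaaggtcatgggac
Hoxb5 trunk-alone: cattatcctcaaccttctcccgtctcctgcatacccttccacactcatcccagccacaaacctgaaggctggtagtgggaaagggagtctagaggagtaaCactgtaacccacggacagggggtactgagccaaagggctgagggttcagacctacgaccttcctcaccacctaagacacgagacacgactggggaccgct
Foxc1 trunk-alone: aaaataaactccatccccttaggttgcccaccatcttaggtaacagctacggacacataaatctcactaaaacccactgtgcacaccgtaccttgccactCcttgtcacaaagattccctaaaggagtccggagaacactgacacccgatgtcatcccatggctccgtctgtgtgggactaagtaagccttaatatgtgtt
Hoxc5 trunk-alone: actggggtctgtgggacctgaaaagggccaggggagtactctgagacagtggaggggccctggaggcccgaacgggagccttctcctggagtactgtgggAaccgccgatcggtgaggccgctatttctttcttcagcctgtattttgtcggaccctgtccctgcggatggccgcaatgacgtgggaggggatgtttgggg
Hoxd13 promoter, limb alone: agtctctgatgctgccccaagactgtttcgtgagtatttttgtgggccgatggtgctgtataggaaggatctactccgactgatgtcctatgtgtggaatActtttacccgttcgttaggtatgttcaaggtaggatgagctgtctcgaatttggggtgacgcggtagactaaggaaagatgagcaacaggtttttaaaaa

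The height of a summit is given as summit reads, the number of extended reads piled up there, which was recovered from the fold and the −log10 p of each summit. The window of Tbx15 stood at 91 limb reads, that of Tbx2 at 31 and that of Msx1 at 17. Trunk reads were 61 at the Hoxb5 window, 41 at the Foxc1 window and 58 at the Hoxc5 window. The Tbx15 and Hoxc5 regions also overlapped peaks of both EGFP- lists, whereas those of Tbx2, Msx1, Hoxb5 and Foxc1 overlapped none. None of the 7 windows held any of the 8 short motifs that were searched for in all regions.

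Over each whole list the median summit held 29 reads in limb and 28 in trunk (ranges 7 to 235 and 7 to 254), while at shared promoter regions the medians were 56 and 45, with more limb reads at 79.9% of them. Chondrocyte genes carried peaks in both. Of 24 cartilage matrix and Sox genes, 22 had a promoter interval in both tissues, beside 51.0% of all protein-coding genes, of which 44.0% had one in neither. Among the 22 were Col2a1 with 110 limb and 84 trunk reads, Sox9, the master factor of chondrocytes, with 103 and 82, and Acan, the aggrecan gene, with 70 and 53. Of the 24, only Epyc (no limb interval, 19 trunk reads) and Ucma (none in either) did not have both. None of the 8 epithelial, 8 endothelial or 8 notochord markers had a promoter interval in either EGFP+ list, and among 10 skeletal muscle markers only Myog had one (13 limb reads). Of the notochord markers, T and Foxa1 are also among the genes that the study called trunk-specific chondrogenic from RNA. The study also reported high Foxa2 RNA in EGFP+ cells of both tissues. A missing promoter interval therefore does not show that such cells were absent. Tendon and connective tissue markers had promoter intervals at 4 of 8 genes in limb (121 summed reads) and 3 of 8 in trunk (91), osteoblast markers at 4 of 8 (135) and 3 of 8 (92), neural markers at 3 of 10 (46) and 2 of 10 (39), and the blood markers at 1 of 8 in both (71 and 65). Distal regions near the tendon and connective tissue markers were 31 limb-alone and 6 trunk-alone, 83.8% limb (95% exact binomial interval 68.0 to 93.8), of which 21 and 2 lay near Osr1 and Tcf7l2. Near the skeletal muscle markers they were 18 and 6 (75%, 53.3 to 90.2) and near the osteoblast markers 14 and 5 (73.7%, 48.8 to 90.9), beside 59.3% limb near any gene. The part of these cell types in the results was not tested, and fewer cells of a type and less mark per cell cannot be told apart in sorted bulk cells.

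Promoter intervals were more often common to both tissues than distal intervals. Of 18066 limb promoter intervals, 86.0% were overlapped by a trunk interval (95% exact binomial interval 85.4 to 86.5), and of 16936 trunk promoter intervals 93.5% by a limb interval (93.1 to 93.9). For distal intervals the shares were 49.4% of 22833 in limb (48.8 to 50.1) and 59.4% of 19295 in trunk (58.7 to 60.1). Overlapping intervals were joined to regions, which left 10931 shared, 11546 limb-alone and 7830 trunk-alone distal regions, and 15101, 2538 and 1097 promoter regions. Limb-alone regions thus made up 59.6% of tissue-alone distal regions (58.9 to 60.3). The share depended on which intervals were kept. With the limb list limited to its 36231 intervals of highest −log10 p, as many as the trunk list holds, it was 49.3%. Lists of equal length bring the limb-alone and trunk-alone counts close by construction. With both lists limited to −log10 q of at least 5 the share was 70.6%, and what sets it was not tested. With the full lists it ran from 56.2% on chromosome 9 to 62.8% on chromosome 13 among the autosomes, and was 66.4% (60.9 to 71.5) on the X chromosome.

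Whether a peak had a counterpart went with its −log10 p. In the lowest 10% of each list by −log10 p, 24.3% of limb and 32.9% of trunk distal intervals were overlapped, and in the highest 10% 272 of 273 and 230 of 230. Promoter intervals went from 32.4% (limb) and 54.5% (trunk) to 100% in both. Tissue-alone distal regions also held few reads, with a median of 14 in limb and 13 in trunk against 24 and 23 at overlapped distal intervals. At least 30 reads stood at 870 limb-alone and 260 trunk-alone distal regions. A missing interval says only that no peak was called there, not that the mark was absent.

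**Figure D1:**
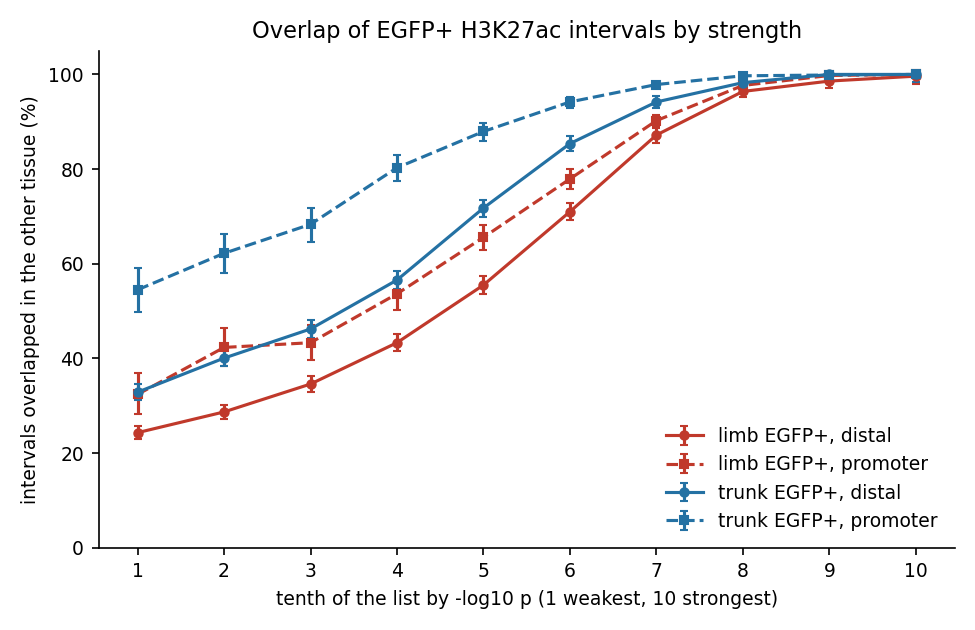
Share of EGFP+ intervals overlapped by an interval of the other tissue (percent, vertical axis) by 10% step of the list in −log10 p, from low to high (horizontal axis), for limb (red) and trunk (blue), distal (solid lines) and promoter (dashed lines), with 95% exact binomial intervals. All 4 lines climb, from 24.3% for the weakest limb distal intervals to 99.6% for the strongest.

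Tissue-alone distal regions lay farther from genes than shared ones. The median distance to the nearest start site was 23.6 kb for shared, 37.1 kb for limb-alone and 35.3 kb for trunk-alone regions, and the share in introns was alike (45.9%, 47.2% and 47.5%). A shared distal region lay within 5 kb of 21.2% of limb-alone and 15.8% of trunk-alone regions. Most tissue-alone distal regions had no peak in either EGFP- list (80.7% of limb-alone and 79.7% of trunk-alone), against 43.2% of shared distal regions. Tissue-alone regions also held fewer reads (medians of 14 in limb and 13 in trunk, against 25 limb reads at shared regions), whose part was not tested. The limb EGFP- list overlapped 15.6% of limb-alone regions (15.0 to 16.3) and the trunk EGFP- list 9.58% (9.05 to 10.1), whereas for trunk-alone regions the shares were 14.1% (13.3 to 14.9) and 13.9% (13.1 to 14.6). The limb EGFP- list is the longer one, with 17768 distal intervals against 14231 in trunk EGFP-, and the part of list length was not tested.

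Short letters also differed between the regions. In 500 bp windows around the summit, with both strands searched, TAATTA, the core of many homeodomain sites, stood in 13.3% of limb-alone (12.6 to 13.9), 9.07% of trunk-alone (8.44 to 9.73) and 7.76% of shared distal regions (7.26 to 8.28), and in 6.63% of windows of that length around all start sites. The posterior Hox core TTTATTG stood in 9.78%, 7.74% and 6.51%, and in 4.99% of start site windows. For AACAAAG, a Sox core, the shares were 13%, 13.9% and 11.9%, with overlapping counting intervals for limb-alone and trunk-alone regions, against 8.43%. The second Sox core, AACAATG, was found in 6.75%, 6.32%, 5.44% and 4.72%, and the forkhead core TGTTTAC in 7.17%, 7.73%, 7.11% and 4.66%. TAAGTG, an Nkx core, stood in 20.6%, 18.1%, 16.6% and 14.1%, CAGCTG, an E-box, in 27.8%, 30.1%, 30.5% and 26.2%, and GTCACGC, a paired domain core, in 1.5%, 1.19%, 1.70% and 3.57%. Limb-alone windows were also poorer in G and C (mean 47.1% ± 6.32 SD) than trunk-alone (47.9% ± 5.87) and shared windows (50.9% ± 6.66), which moves with the count of A- and T-rich letters, and the part of base composition was not tested. Among regions with −log10 q of at least 5, TAATTA stood in 12.2% of 3357 limb-alone (11.2 to 13.4) and 8.08% of 1337 trunk-alone windows (6.67 to 9.67), and TTTATTG in 9.53% (8.56 to 10.6) and 7.40% (6.06 to 8.94), whose intervals overlap.

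Gene by gene, 11010 of 21581 protein-coding genes had a promoter interval in both tissues, 731 in limb alone (3.39%), 337 in trunk alone (1.56%) and 9503 in neither. At 48 of the 731 and 17 of the 337 the interval did overlap one of the other tissue that ended outside the promoter window. Limb-alone promoters had a median of 14 reads, with 83 at 30 or more, and trunk-alone promoters a median of 12, with 26. An EGFP- list of the same tissue held a promoter peak at 273 of the 731 and at 144 of the 337.

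Among the 10 genes with the highest promoter summits in trunk alone, 4 were Hox genes: Hoxc6 (56 reads), Hoxb7 (54), Hoxb6 (53) and Hoxb2 (49), all with no limb interval. The others were Gm48551 (91), Gm49322 (90), Apc2 (76), Ppa2 (57) and Cpa1 (50), whose trunk intervals overlapped a limb interval beyond the window, and Ier5l (48). In limb, Smim38 (89), Cnga4 (71), Phlda1 (69), Hdgfl2 (68), Lrp5, a Wnt co-receptor of bone (65), and Znhit2 (63) were cases of this boundary kind, and Kank1 (71), Ocel1 (65) and Lrig3 (63) were not. Of the 20 highest without an overlap, a ranking added after the values were seen, the limb list then held the patterning genes Hoxd13 (58), Hoxd12 (50) and Hand2 (47), with Evx2, the neighbour of Hoxd13 (50). It also held Ccdc8 (56), Mab21l2 (55), Arhgef28 (54), H2ac19 (54), Setbp1 (53), Irf2bp1 (53) and Gtpbp1 (52). The trunk list held Pax1 (43), Hoxc8 (37), Alx1 (37) and Foxd1 (33), and beside them H2bc7 (41), P4ha3, which hydroxylates collagen (40), H3c4 (40), Rin3 (37), Dlk1 (34), Eif4g3 (32) and Zfp692 (32). The histone genes H2ac19, H2bc7 and H3c4 have near-identical copies, so that their reads are uncertain.

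Limb patterning factors were marked mainly in limb chondrocytes. Of 35 such genes, 18 had a promoter interval in limb alone, against 3.39% of all genes, 1 in trunk alone (Hoxd11), 9 in both and 7 in neither. Within 100 kb of their start sites lay 75 limb-alone and 26 trunk-alone distal regions, a limb share of 74.3% (64.6 to 82.4), beside 59.3% (58.5 to 60.1) for regions near any gene. The list's median excess of limb-alone over trunk-alone regions was 3 a gene, against 0 over all genes, and 18 of the 35 had an excess of at least 3, which 7.71% of all genes had. Neighbouring Hox genes share regions, and without them, an alternative added after the values were seen, 15 of 26 promoters were in limb alone, 66 of 89 regions were limb-alone (74.2%, 63.8 to 82.9), 9 of 26 genes had the excess and the median excess was 0.

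Factors that set limb identity and axes were among the members with the most limb-alone regions. Hand2, which acts upstream of Shh at the posterior limb margin, had 47 limb reads (95% exact Poisson interval 34.5 to 62.5) and no trunk interval at its promoter, with 9 limb-alone and 0 trunk-alone distal regions. Tbx5, the forelimb T-box factor, had 36 limb reads (25.2 to 49.8) and Pitx1, the hindlimb homeobox factor, 30 (20.2 to 42.8), both with no trunk interval and 7 limb-alone distal regions against 0. Tbx4, their hindlimb partner, had 59 limb (44.9 to 76.1) and 11 trunk reads (5.49 to 19.7), with 7 limb-alone, 2 trunk-alone and 8 shared regions. Forelimbs and hindlimbs were pooled in this library.

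The regions around these genes were low but many. At Hand2 the 9 limb-alone regions ran from −8.67 to 97.8 kb from the start site and held 9 to 29 reads, with the highest 7.51 kb downstream on chromosome 8 from 57781409 to 57781667, between genes. At Pitx1 a pair of intronic summits 0.859 and 1.34 kb downstream held 50 and 47 reads, and the other 5 regions 10 to 22. Tbx5 had a pair at −28.8 and −27.7 kb (30 and 29 reads) and a group at 30.3 to 32.5 kb downstream, of which 1 was shared with 32 limb and 10 trunk reads. Lmx1b, the factor of dorsal limb fate, had 31 limb reads (21.1 to 44.0) and no trunk interval at its promoter, and its 9 limb-alone regions held 12 to 22 reads.

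Other members with a promoter interval in limb alone were the LIM homeobox genes Lhx9 (43 reads) and Lhx2 (24), Msx1 (37) and Msx2 (17) of the progress zone and interdigits, Sall1 (40) and Sall4 (9), Tbx15 (31) and Tbx2 (15), Prrx1 (35), Irx5 (13) and Dlx6 (13). At Prrx1 the limb interval was overlapped by a trunk interval outside the window. Excesses of at least 3 regions stood also at Tbx15 (6 against 1), Msx1 (4 against 0), Sall1 (4 against 1), Tbx2 (4 against 1) and the HoxA and HoxD members, and Prrx2, with 3 limb-alone and 6 trunk-alone regions, was the 1 member with such an excess in trunk. Dlx5 had 25 limb and 11 trunk reads. Trunk reads were above limb reads at Meis1 (25 limb, 66 trunk), Meis2 (17 and 41) and Tbx3 (18 and 37), and the counting intervals of limb and trunk were apart for Meis1 (16.2 to 36.9 against 51.0 to 84.0) and Meis2 (9.90 to 27.2 against 29.4 to 55.6). Shox2, En1 and Alx4 had no promoter interval and no distal region within 100 kb in either list. At the Shox2 locus the study had reported chondrogenic enhancers that were active in limb but not in trunk chondrocytes. Regions beyond 100 kb are not in the counts given here. Of the 18 members with a limb promoter alone, 5 had a promoter peak in the limb EGFP- list and 1 in the trunk EGFP- list.

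**Figure D2:**
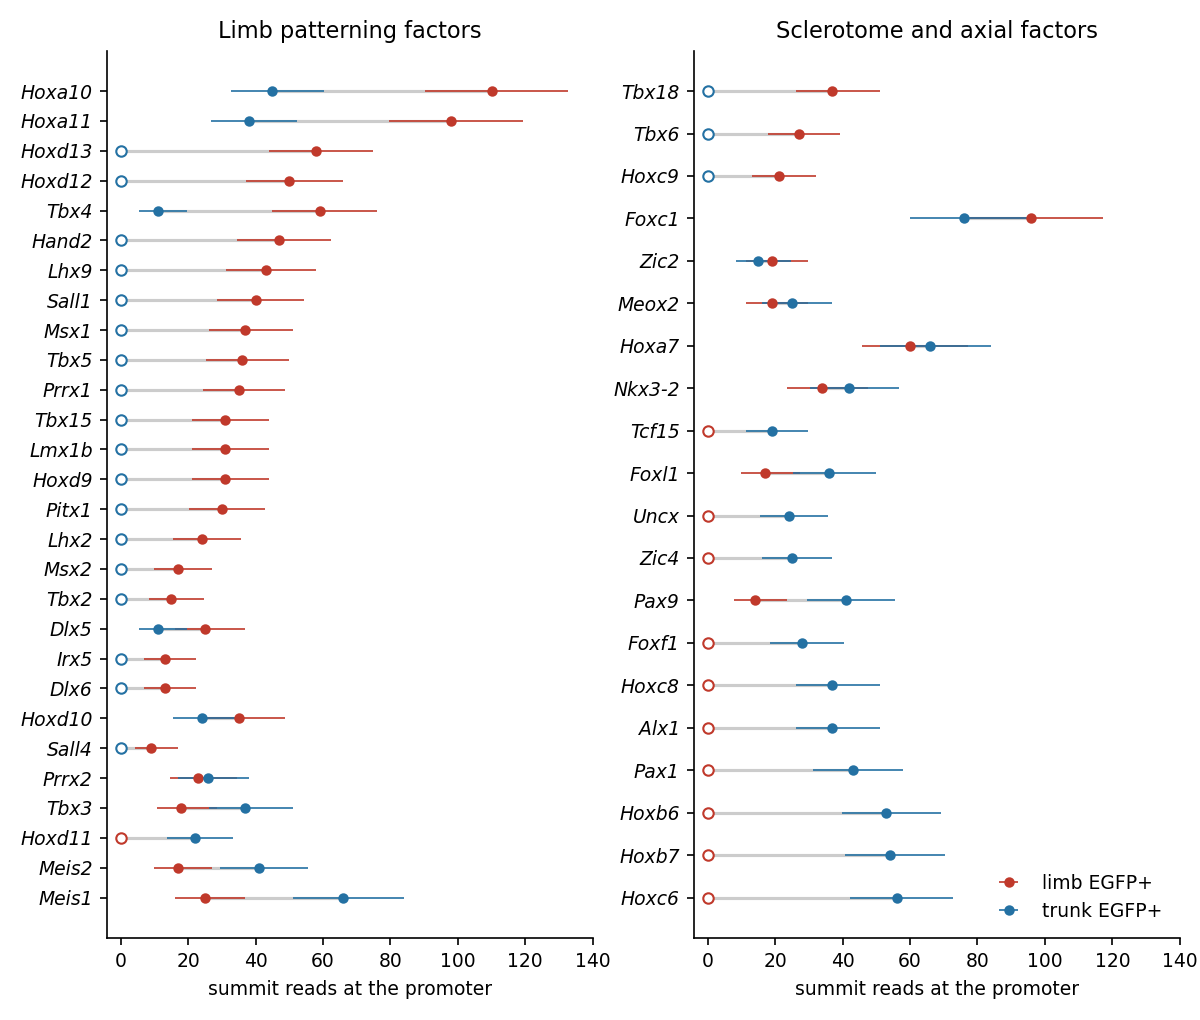
Summit reads at the promoter (horizontal axis) of each limb patterning factor (left) and each sclerotome and axial factor (right) with a peak in limb (red) or trunk (blue) EGFP+ cells, with 95% exact Poisson intervals. An open circle at 0 marks a list without an interval there, as for trunk at Hand2 and for limb at Pax1.

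Sclerotome and axial factors gave the opposite picture. Of 36 genes, 10 had a promoter interval in trunk alone, against 1.56% of all genes, 3 in limb alone, 7 in both and 16 in neither. Near them lay 30 limb-alone and 54 trunk-alone distal regions, a limb share of 35.7% (25.6 to 46.9), and 13 of the 36 had at least 3 more trunk-alone than limb-alone regions, which 2.64% of all genes had. The list's median excess was −1. Of the 13, 9 were Hox genes that count the same regions of HoxB and HoxC, and Uncx, Pax9 and the neighbours Zic1 and Zic4 were the other 4. Without Hox genes 6 of 24 promoters were in trunk alone and 23 of 57 regions limb-alone (40.4%, 27.6 to 54.2). With both lists limited to folds of at least 4, limb-alone regions were 16 of 27 near this list (59.3%), below the 69.7% of all tissue-alone distal regions under that limit.

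Pax1, which together with Pax9 drives sclerotome cells into cartilage, had 43 trunk reads (31.1 to 57.9) and no limb interval at its promoter. Pax9 had 14 limb (7.65 to 23.5) and 41 trunk reads (29.4 to 55.6), with 3 trunk-alone regions 74 to 86 kb away, of 11 to 14 reads, and 0 limb-alone. Uncx, the factor of the posterior sclerotome and of pedicles, had 24 trunk reads (15.4 to 35.7), no limb interval and 4 trunk-alone regions of 10 to 27 reads against 0. Alx1 stood at 37 trunk reads (26.1 to 51.0), Foxf1 at 28 (18.6 to 40.5), Zic4 at 25 and Tcf15, the paraxial mesoderm factor also called paraxis, at 19, all without a limb interval. Zic1 and Zic4, which neighbour each other, had 3 trunk-alone regions and no limb-alone region.

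Some axial factors did not follow. Nkx3-2, a repressor downstream of Sonic hedgehog in the sclerotome and a cartilage factor in limb and trunk alike, had 34 limb and 42 trunk reads. Foxc1 had 96 limb and 76 trunk reads with 7 limb-alone and 3 trunk-alone distal regions, and Foxl1 17 and 36. Tbx18 (37 limb reads), Tbx6 (27) and Hoxc9 (21) had a promoter interval in limb alone, and the first 2 also had peaks in the limb EGFP- list (30 and 22 reads). Meox2 (19 and 25) and Zic2 (19 and 15) had like reads in both. Hoxa7 had 60 and 66, but at promoter intervals of limb and trunk that did not overlap each other. Hoxa5 and Hoxa6 had no promoter interval, and they share with Hoxa7 an excess of 3 limb-alone regions.

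**Figure D3:**
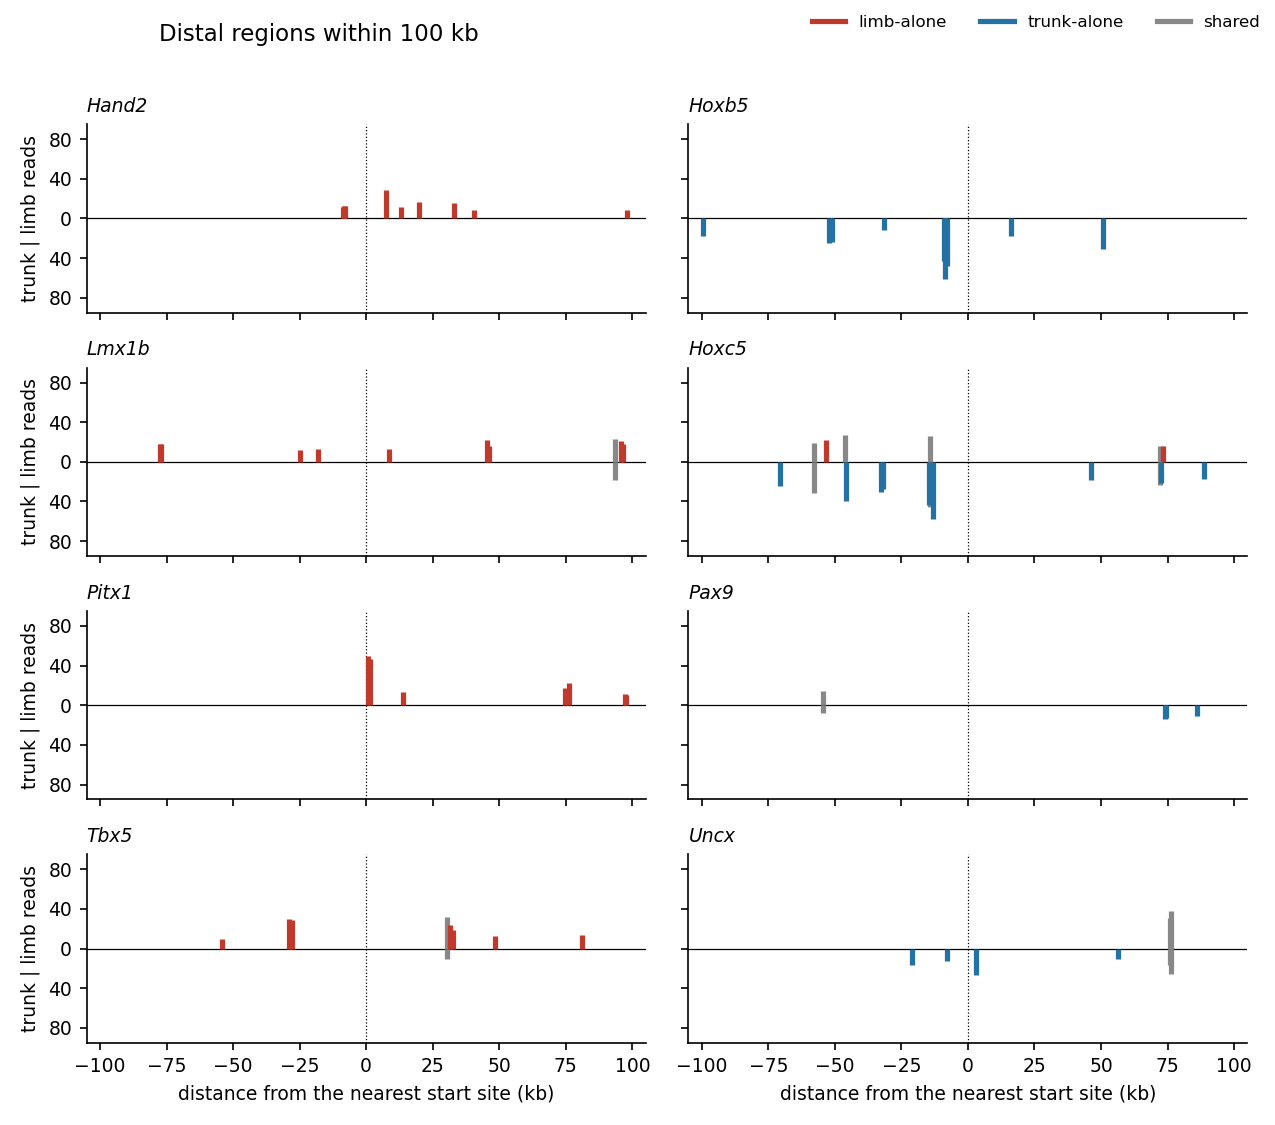
Distal regions within 100 kb of the start site (horizontal axis, kb) of 4 limb patterning factors (left) and 4 axial factors (right), with limb summit reads drawn upward and trunk summit reads downward. Limb-alone regions (red) fill the left panels (9 at Hand2, 9 at Lmx1b, 7 at Pitx1, 7 at Tbx5) and trunk-alone regions (blue) the right (9 at Hoxb5, 9 at Hoxc5, 4 at Uncx, 3 at Pax9), with shared regions in grey and 2 limb-alone regions at Hoxc5.

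Hox clusters split by cluster. The HoxB cluster had no limb promoter interval at any of its 10 genes, trunk promoter intervals at Hoxb2 (49 reads), Hoxb3 (27), Hoxb6 (53) and Hoxb7 (54), and 10 trunk-alone against 0 limb-alone distal regions. HoxC had 5 of 9 promoters marked in trunk alone, at Hoxc4 (17 reads), Hoxc6 (56), Hoxc8 (37), Hoxc11 (25) and Hoxc13 (17), 1 in limb alone (Hoxc9, 21) and 1 in both (Hoxc10, 47 limb and 48 trunk), with 11 trunk-alone and 3 limb-alone regions. HoxD, whose posterior genes pattern forearm and digits, had Hoxd13 (58), Hoxd12 (50) and Hoxd9 (31) in limb alone, Hoxd10 in both (35 and 24) and Hoxd11 in trunk alone (22). Its distal regions were 4 limb-alone and 1 trunk-alone.

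In the HoxA cluster the direction changed along the cluster. Hoxa10 had 110 limb (90.4 to 133) and 45 trunk reads (32.8 to 60.2) and Hoxa11 98 (79.6 to 119) and 38 (26.9 to 52.2), whereas Hoxa4 had 13 (6.92 to 22.2) and 38 (26.9 to 52.2). At Hoxa3 (77 limb, 87 trunk) and Hoxa7 (60 and 66) the counting intervals of the reads overlapped, although at Hoxa7 the limb and trunk peaks lay at different places. Over the 39 Hox genes, 4 promoters were marked in limb alone, 11 in trunk alone, 7 in both and 17 in neither, beside 3.39% of all genes in limb alone and 1.56% in trunk alone. Of the 11, 10 had a promoter peak also in the trunk EGFP- list.

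**Figure D4:**
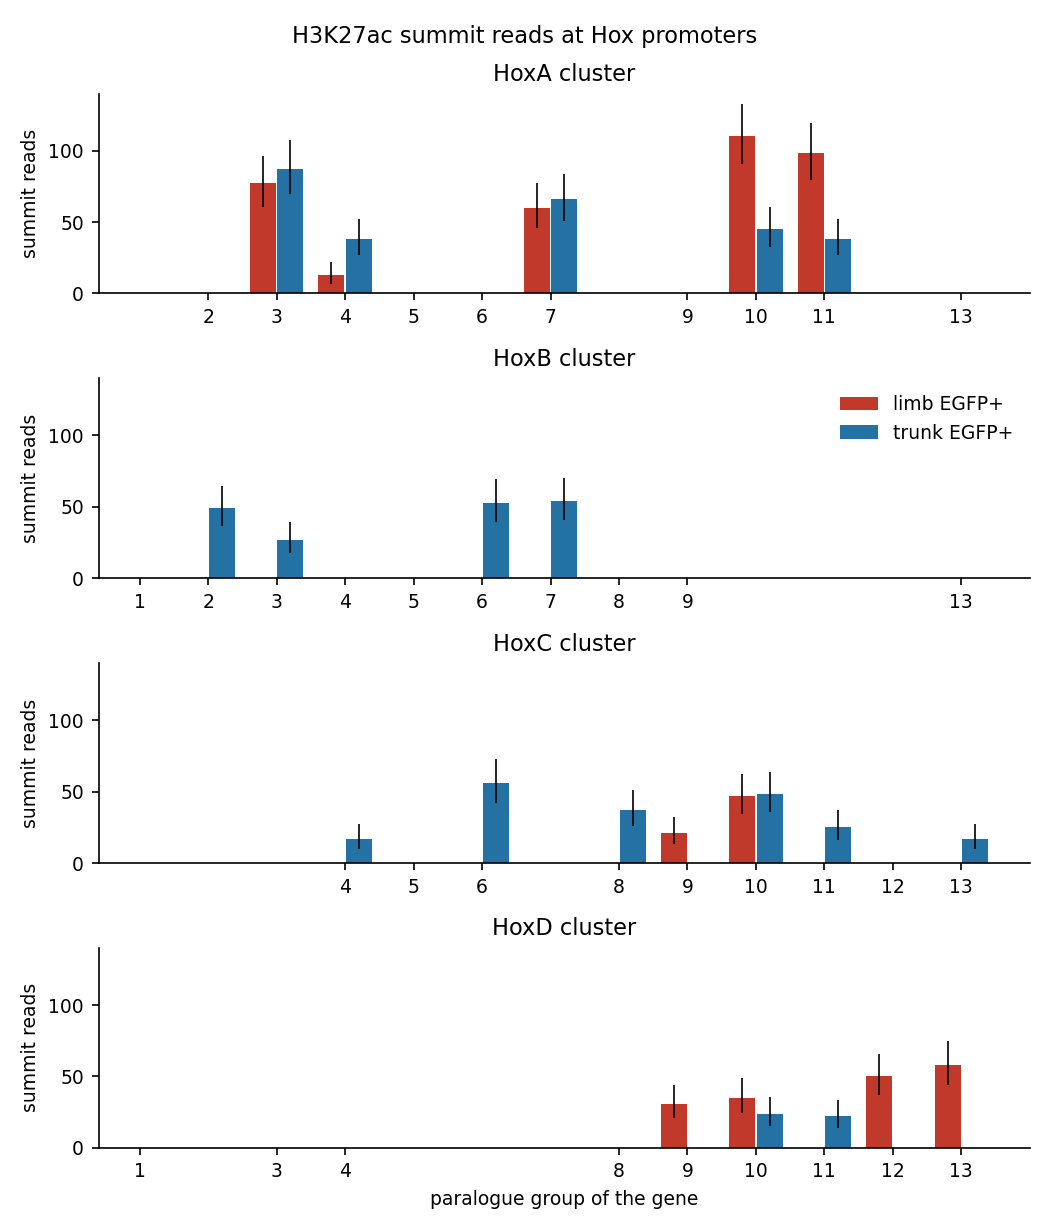
Summit reads at the promoter (vertical axis, 95% exact Poisson intervals) of Hox genes by paralogue group (horizontal axis) in the 4 clusters, for limb (red) and trunk (blue) EGFP+ cells. No bar means no interval in that list: HoxB has trunk bars alone, and limb bars exceed trunk bars at Hoxa10, Hoxa11 and the posterior HoxD genes other than Hoxd11.

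Genes that the study had called limb-specific or trunk-specific chondrogenic genes from RNA of the same populations were also examined, and this choice is not independent of the samples. Of 67 limb-specific entries 49 matched a protein-coding gene, and 12 of these had a promoter interval in limb alone (3.39% of all genes), 1 in trunk alone and 8 in both. Their distal regions were 119 limb-alone and 34 trunk-alone, 77.8% limb (70.4 to 84.1) beside 59.3% near any gene, with 12 against 2 at Prdm16, a zinc finger regulator (74 limb and 36 trunk promoter reads), 6 against 0 at Cmklr1 and 5 against 1 at Igf2, the fetal growth factor. Barx2, a homeobox factor of joint cartilage, had 23 limb promoter reads, no trunk interval and 3 limb-alone regions. Of 58 trunk-specific entries 43 matched, with 8 promoters in trunk alone (1.56% of all genes), 2 in limb alone and 10 in both. Their distal regions were 58 limb-alone and 59 trunk-alone, 49.6% limb (40.2 to 59.0) and so below the 59.3% near any gene. Here Clec3a (22 trunk reads), Mgst2 (21), Loxl4, a collagen crosslinking enzyme (18), Prdm6 (14) and Itgbl1 (11) had a promoter interval in trunk alone beside Pax1, Alx1 and Foxf1. Pax1, Alx1 and Foxf1 are also among the axial factors, so that the trunk-specific and axial lists are not independent.

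Of 14 joint genes, 5 had a promoter interval in limb alone (3.39% of all genes), none in trunk alone and 5 in both, and 49 of 67 tissue-alone distal regions were limb-alone (73.1%, 60.9 to 83.2), beside 59.3% near any gene. Without Osr1, which is also among the tendon and connective tissue markers, 42 of 60 were (70%, 56.8 to 81.2). The limb-alone promoters were those of Barx2 (23 reads), Osr1 (22), Dkk3 (21), Wnt4 (10) and Wnt16 (10). Osr1 had 7 limb-alone regions against 0, Prg4, the lubricin gene, 4 against 0 and Wnt9a 4 against 0. The study had called Prg4 trunk-specific by RNA, against the direction of its regions here. Barx2, Barx1 and Gdf5 are among its limb-specific genes, so that the joint list is not independent of those lists. Gdf5, the joint growth factor, had 57 limb and 36 trunk reads with 3 regions on each side, and Osr2 had 38 (26.9 to 52.2) and 15 (8.40 to 24.7). Erg, with 5 limb-alone and 7 trunk-alone regions, ran against the list.

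Growth plate genes were mostly marked in both tissues. Among 29 growth plate signalling genes 24 had promoter intervals in both tissues, beside 51.0% of all genes. Near them 114 of 170 tissue-alone regions were limb-alone (67.1%, 59.4 to 74.1), beside 59.3% near any gene. Single genes ranged in both directions. Nog, the BMP antagonist, had 58 limb (44.0 to 75.0) and 27 trunk reads (17.8 to 39.3) and 7 regions against 1, Mef2c, a driver of hypertrophy, 9 against 1, and Bmpr1b, a BMP and GDF receptor, 10 against 4. Ihh, the hedgehog ligand of prehypertrophic cells, had 11 reads in limb alone, Runx3 24 in limb alone and Fgf18, a ligand of Fgfr3, 21 in trunk alone. Near the 24 cartilage matrix and Sox genes the limb share was 63.4% (55.1 to 71.3), and near 563 chondrogenic genes common to both tissues 61.7% (59.5 to 63.8).

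**Figure D5:**
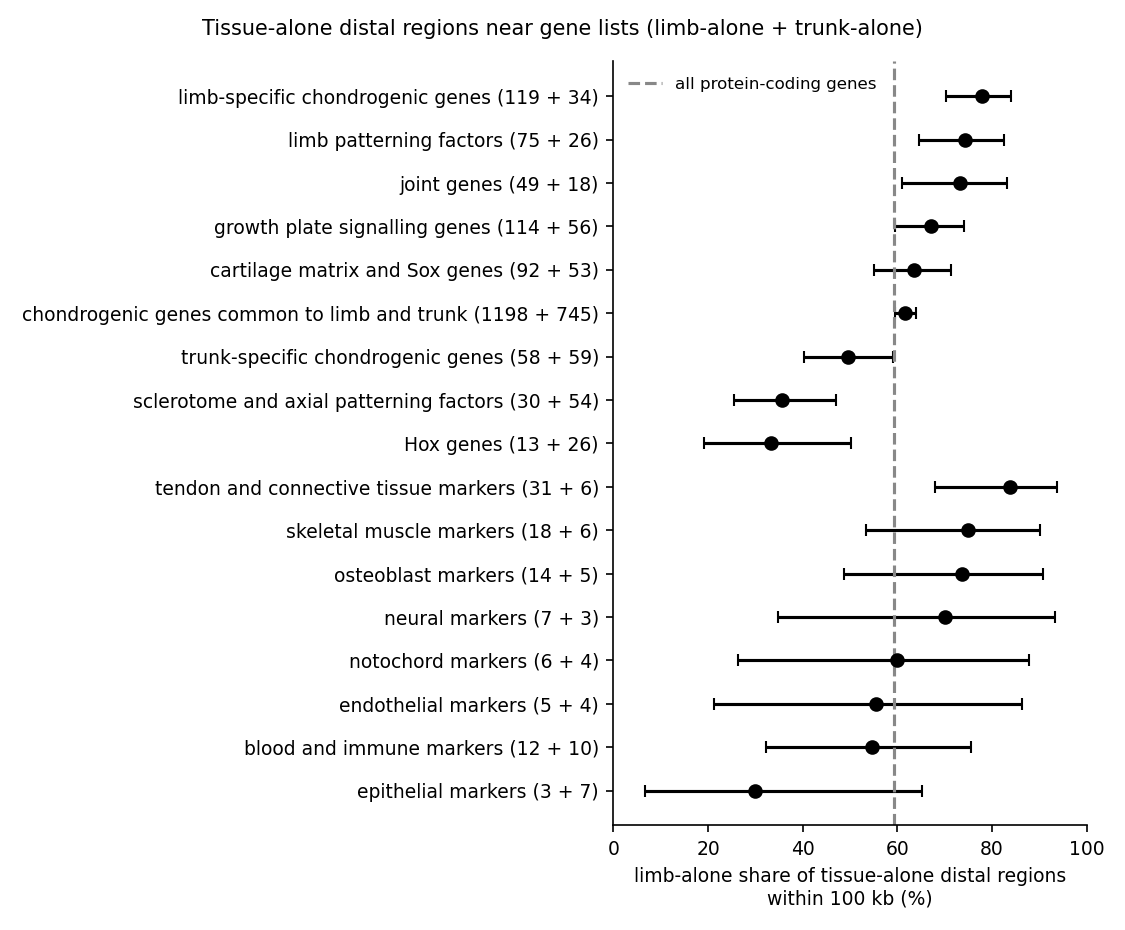
Limb-alone share of tissue-alone distal regions within 100 kb (percent, horizontal axis, 95% exact binomial intervals) for 9 gene lists and, under them, 8 lists of markers of other cell types, with the limb-alone and trunk-alone counts in brackets. The dashed line marks 59.3%, the share near all protein-coding genes, and the upper 9 lists run from 77.8% for limb-specific genes to 33.3% for Hox genes. Tendon and connective tissue markers stand at 83.8% and skeletal muscle markers at 75%, with fewer regions and wider intervals.

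Genes were ranked by their excess of tissue-alone regions, leaving out any gene within 200 kb of one already taken, since neighbours share regions. Regions within 100 kb of any start site of a gene counted, so that genes with start sites far apart can gather more. The 10 of limb included 8 with a promoter interval in both tissues, beside 51.0% of all genes. The 10 were Agap1 (17 limb-alone against 1 trunk-alone), Creb5, a factor of articular cartilage (18 against 3), Septin9 (17 and 3), Filip1l (16 and 3), Dgki (13 and 1), Foxp1 (15 and 3), Arid5b, a Sox9 cofactor (15 and 3), Tcf7l2, a Wnt effector (14 and 2), Ankfn1 (14 and 3) and Pde4d (13 and 2). At the promoter Creb5 had 79 limb and 29 trunk reads, and Foxp1, a perichondrial factor, 48 and 60. The 10 of trunk were Hoxb5 (0 limb-alone against 9 trunk-alone, as at Hoxb2 to Hoxb9), Hoxc4 (3 and 11), Maml3, a Notch coactivator (3 and 10), Zfhx3 (4 and 10), Fance (2 and 8), Fmod, the proteoglycan fibromodulin (2 and 8), Rilp (0 and 6), Nckap5 (3 and 9), Sacm1l (0 and 6) and Tacc2 (1 and 7).

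The single tissue-alone distal regions of the highest −log10 p lay near other genes than the patterning factors. The 10 of limb were nearest to Pak3 on the X chromosome (54 reads), Ube2e2 (102), Alkbh8 at 2 sites (72 and 62), Samd9l (37), Axin2 (40), Cdk5rap2 (37), Arid1a (63), Tenm4 (49) and Cdk8 (31). The Ube2e2 site at −525 kb and the Alkbh8 sites at −313 and −308 kb lay close to the assembled starts of chromosomes 14 and 9. The Samd9l site lay 183 kb downstream of the start site of that gene, on chromosome 6 from 3201316 to 3201696. Of the 10, 9 also had a peak in the limb EGFP- list and 1 in the trunk EGFP- list. The Ube2e2 site, on chromosome 14 from 3050713 to 3051091, had a summit 50-mer found 20 times in the genome. The 10 of trunk lay near Zfp503 (47 reads), Comtd1 (39), Senp7 (25), Tmem174 (34), Zfp704 (29), Rassf2 (37), Tmem247 (26), Sfi1 (21), AA414768 (21) and Exoc2 (33), and 5 had a limb EGFP- and 5 a trunk EGFP- peak. Without an EGFP- peak, a choice added after the values were seen, the highest limb-alone regions lay in introns of Clic4 (47 reads, chromosome 4 from 134981625 to 134982225) and Arhgap31 (44), and the highest trunk-alone ones in introns of Zfp704 (29, chromosome 3 from 9526285 to 9526642) and beside Tmem247 (26). Nfib, a cartilage and lung factor, had an intronic limb-alone region of 54 reads, and Bicc1 an intronic trunk-alone one of 37.

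Where both tissues had an interval, the reads were close, with more in limb. Among 10444 shared distal regions the median ratio of limb to trunk summit reads was 1.12, and among 14903 shared promoter regions 1.23, or 0.30 on the log2 scale. A difference was called when the reads differed at least 2-fold with 95% Poisson intervals apart. Limb was higher at 230 distal (2.2%) and 251 promoter regions (1.68%) and trunk at 19 (0.182%) and 12 (0.0805%). This balance rests on the scale: with limb reads divided by the promoter median of 1.23, an alternative added after the values were seen, limb was higher at 48 distal and 32 promoter regions and trunk at 110 and 71.

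The shared regions with the largest ratios included several at patterning genes. Toward limb they included Gas1, a hedgehog co-receptor (at −90.7 kb, 61 limb against 12 trunk reads), a region 383 kb beyond Mtx2, the gene next to the HoxD cluster (chromosome 2 from 75038873 to 75040484, 70 against 15), and the promoter regions of Tbx4 (47 against 11), Nrn1 (69 and 18), Magi1 (49 and 13), Mpzl2 (59 and 16) and Frat1 (31 and 9). The other 3 of the 5 distal ones lay close to the assembled starts of chromosomes 9 and 14, nearest to Alkbh8 (120 against 16 and 98 against 24) and Ube2e2 (128 against 23). Toward trunk stood an intronic region of Hoxa3 (9 limb against 42 trunk reads, chromosome 6 from 52149916 to 52150253), regions in introns of Sort1 (8 and 27), Thsd4 (13 and 43), Maml3 (7 and 23) and Adcy9 (9 and 28), and promoter regions of Meis1 (18 and 63, and 25 and 66), Hoxa4 (13 and 38), Sncaip (16 and 45) and Pax9 (14 and 38). Shared distal regions near limb patterning factors had a median ratio of 1.48 (29 regions), those near sclerotome and axial factors 0.94 (35) and those near Hox genes 0.70 (7), beside 1.12 over regions near any gene.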

How the data were processed

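H3K27ac ChIP-seq was made in 4 libraries, 1 for each of limb EGFP+, limb EGFP-, trunk EGFP+ and trunk EGFP- cells. Per the study's methods, the authors sampled reads to a similar number in each library, trimmed adapters with cutadapt 1.18, aligned reads to GRCm39 with Bowtie2 2.3.5.1, filtered them on mapping quality with SAMtools and called peaks and summits per library with MACS2 2.2.7.1, without pooling. An input control is not given in the sources used here. The deposited lists hold for each summit a score, the fold over background, the −log10 of the p-value and the −log10 of the q-value. The lists hold no read totals, so that the depth left after mapping and filtering was not analysed here. Peak names of the trunk EGFP- list alone carry a replicate 2 mark, although the labels give 1 library for each population.

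Summits that shared a start and an end counted as 1 interval. Summit reads were recovered from the deposited fold and −log10 p as the whole number that gives both, for 100% of summits. The background differs from summit to summit, and its lowest value was 1.49 reads in limb and 1.60 in trunk. Many reads can therefore stand at a low fold, as at a limb-alone summit in an intron of Acan (57 reads, fold 2.84). A GENCODE annotation on GRCm39 gave 67388 start sites for 21581 protein-coding genes, and no interval ended beyond a GRCm39 chromosome (0 intervals). Promoters ran from 2000 bp upstream to 500 bp downstream, and distal regions were counted within 100 kb of a start site. The promoter reads of a gene were the highest over all its start sites, so that limb and trunk values can come from different places. Regions with a summit of the other place on 1 side (487 distal, 198 promoter) were left out of read comparisons. Shares have 95% exact Clopper-Pearson and reads 95% exact Poisson intervals. With 1 library a group no test was made. The named genes and regions were the 10 of each tissue with the highest promoter reads, the largest excess of distal regions (skipping genes within 200 kb of one taken) or the highest −log10 p, and the 5 largest ratios of each kind. Some of the items these rules name are not reported here. The members and gene lists were chosen with earlier results of these data known. Computing was done in scipy 1.17.1, pandas 2.3.3 and numpy 2.4.6 under Python 3.11.15, with plots from matplotlib 3.10.9, and the code was tested on simulated data. Other thresholds, overlaps, windows and scalings were tried.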

Additional observations from a re-analysis of the deposited data

How the results depend on the processing

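No paired analysis was possible because each group holds 1 library, so that the groups share 1 replicate number only. Of 106 alternative values, 51 stayed within the counting interval or 1.5 times the count reported, and 55 moved. With both lists limited to −log10 q of at least 5, the overlapped share was 48.7% of limb and 70.0% of trunk distal and 95.4% of trunk promoter intervals, with 5715 limb-alone, 2385 trunk-alone and 5398 shared distal regions, 216 genes with a trunk promoter alone, and limb shares of 86.8% (limb-specific genes), 84.4% (limb patterning) and 48.3% (axial). At folds of at least 4 they were 36.1% (limb distal), 82.0% (limb promoter) and 56.7% (trunk distal), with 6791, 2957 and 3829 regions and 59.3% for axial factors. With the limb list shortened to the trunk list's size the overlapped shares were 54.8%, 87.6%, 55.0% and 92.7% (trunk promoter), and the limb shares 69.3% near limb-specific and 38.5% near trunk-specific genes. Taking the top 20000 intervals of each they were 61.4%, 89.4%, 62.3% and 92.5%, with 2299, 2315 and 3716 regions and 16.2% for trunk-specific genes. With an overlap of 50% they were 45.4%, 85.0%, 55.3% and 92.6%, and within 1 kb 62.9%, 94.3%, 69.6% and 96.9%. Limiting only tissue-alone regions to −log10 q of at least 5 left 3357 and 1337, with 92.5% for limb-specific and 86.7% for limb patterning genes. Windows of 50 kb gave 82.8% for limb patterning and of 500 kb 63.3% for limb-specific genes. A fold of 1.5 called 354 distal and 831 promoter regions higher in limb. Scaling of the limb reads, added after the data were seen, gave 48 limb and 110 trunk distal and 32 limb and 71 trunk promoter regions. With regions of −log10 q of at least 5, also added, EGFP- peaks of limb and trunk overlapped 23% and 13.6% of limb-alone and 21% and 21.7% of trunk-alone distal regions. The causes of these moves were not tested.

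The limb share of tissue-alone distal regions ran from 49.3% with lists of equal size to 71.5% with tissue-alone regions of −log10 q of at least 5. In all 8 settings with such a share, the limb-specific and limb patterning lists lay above it and the trunk-specific and axial lists below. Over these and the other windows the lists ran from 63.3% to 92.5%, 65.7% to 86.7%, 16.2% to 58.3% and 26.3% to 59.3%. The trunk-specific and axial lists share Pax1, Foxf1, Foxl1, Alx1, Foxf2 and Sim2, so that they are not independent of each other. Tissue and library cannot be told apart at any setting.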
